A study of Mus musculus with 2 samples.

Results

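The high mobility group (HMG) genes Hmgn1, Hmgn3, Hmgn5, Hmgb1, Hmgb2, Hmgb3, Hmga1 and Hmga2 were followed by RNA sequencing in the heart of mouse embryos. They were taken by name from the HMGN, HMGB and HMGA families, leaving out Hmgn2, and all 8 were found by gene identifier among the 17646 genes listed in at least 1 library. The series holds 1 wild-type heart library and 1 Srsf10 knockout heart library, labelled SRSF10-/-, both from BALB/c embryos of day 13.5. The product of Srsf10 is an SR-type splicing factor, and the comparison asks how transcript levels differ when it is lost. The sources used here do not give how the allele was made, how many embryos were used or their sex. Each genotype has 1 library, so the differences have no replicate check and no significance test was made. The 95% intervals come from read counts and hold counting error alone. Higher and lower thus describe these 2 libraries.

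HMG proteins are small, abundant proteins that bind chromatin and change how DNA is folded in it. HMGN proteins bind the nucleosome itself through a conserved domain and compete with linker histone H1, HMGB proteins bend DNA with HMG boxes, and HMGA proteins bind the minor groove of AT-rich DNA with short AT-hooks. The HMGA genes and several HMGB genes are typically high in embryonic and dividing tissue and low in adult tissue.

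The part of each family that contacts chromatin is short and conserved, as its codons show (GENCODE M21 transcripts, GRCm38). For the HMGN genes, 78 bases of coding sequence are given with the codons of the nucleosome-binding core in capitals.
Hmgn1: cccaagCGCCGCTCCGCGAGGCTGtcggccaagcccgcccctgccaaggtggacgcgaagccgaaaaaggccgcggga
Hmgn3: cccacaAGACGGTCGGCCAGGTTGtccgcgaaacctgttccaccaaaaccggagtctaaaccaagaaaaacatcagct
Hmgn5: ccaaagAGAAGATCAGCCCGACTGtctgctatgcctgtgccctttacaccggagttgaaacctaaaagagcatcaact
The core codes for the same residues in all 3 genes, since it was located by them, but only 12 of its 18 bases are identical between Hmgn1 and Hmgn3, 10 between Hmgn1 and Hmgn5 and 12 between Hmgn3 and Hmgn5. Over the 78 bases, 45, 42 and 52 are identical, so that reads of these members differ at many positions. For the HMGA genes, 42 bases around the first of 3 AT-hook cores in each are given, with the core in capitals.
Hmga1: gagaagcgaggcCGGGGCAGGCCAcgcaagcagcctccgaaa
Hmga2: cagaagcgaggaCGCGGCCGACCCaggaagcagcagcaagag

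The HMG genes are also known for their many processed pseudogenes, intronless copies made from their RNA, and only uniquely mapped reads were counted. The first 90 coding bases of the HMGB genes show how close members and copies are. Capitals mark bases that differ from Hmgb1, and Gm21596 is the annotated pseudogene that holds the most Hmgb1 sequence.
Hmgb1: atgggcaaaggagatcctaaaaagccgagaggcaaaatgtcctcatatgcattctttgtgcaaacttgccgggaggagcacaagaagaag
Gm21596: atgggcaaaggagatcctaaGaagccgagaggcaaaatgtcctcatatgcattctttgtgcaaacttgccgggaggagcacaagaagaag
Hmgb2: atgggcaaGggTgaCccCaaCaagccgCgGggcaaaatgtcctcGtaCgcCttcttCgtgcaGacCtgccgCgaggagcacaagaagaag
Hmgb3: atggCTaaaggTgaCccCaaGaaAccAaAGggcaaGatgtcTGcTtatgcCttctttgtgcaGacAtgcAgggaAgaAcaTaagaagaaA
In this stretch Hmgb2 differs from Hmgb1 at 14 bases and Hmgb3 at 22, whereas the pseudogene differs at 1. A copy of this kind leaves a read little by which to be placed, while the HMGB members themselves are readily told apart.

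The libraries held 39.61 M and 38.89 M uniquely mapped gene reads in wild type and knockout. Srsf10 itself had 5245 wild-type and 212 knockout reads, low in the library labelled knockout. All 8 cardiomyocyte markers checked were present, led by cardiac actin Actc1 at 6350 and 5799 RPKM (unique reads scaled by gene length and by the reads of the library). They summed to 17676.5 and 16024 RPKM. In the knockout 6 of the 8 were lower, among them Nppa (1168 and 747 RPKM), and Myh6 and Ttn were higher. The Y-linked genes Ddx3y, Eif2s3y, Kdm5d and Uty together had 2943 wild-type reads against 7 knockout reads, so sex and genotype cannot be told apart in any comparison here. Markers of other cells also differed. Macrophage markers summed to 40.1 RPKM in the wild type against 55.7, with 5 of 6 expressed members higher in the knockout, and mesenchyme markers to 703.9 and 470.0 RPKM, with 5 of 5 lower. Erythroid markers summed to 2988 and 2789 RPKM, nearly all of it from Hbb-y and Hba-x, although 5 of the 8 were higher in the knockout. Skeletal muscle markers summed to 138 and 189, with 3 of 6 higher, among them Tnni2 (24.4 and 96.8 RPKM), and Ckm, Myod1 and Myog lower. Endothelium markers summed to 266 and 258, with 3 of 5 higher, and hepatocyte markers to 3.76 and 0.82, with 3 of 4 lower. The hepatocyte marker Alb was at 0 reads in the knockout, and no marker of the other lists was at 0 in either library. Bulk RNA does not separate fewer cells of a type from less RNA per cell, and the part of these differences in the HMG values was not tested.

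The 8 HMG genes were expressed in both hearts and differed little between them. Their levels spanned 9.04 to 228.8 RPKM in the wild type and 10.07 to 234.6 in the knockout. None reached a 1.5-fold difference on log2(RPKM + 1), against 2.95% of the 12329 genes that reached 1 RPKM in either heart (1.52% higher and 1.44% lower). At a smaller difference of 0.32 on the log2 scale, which 13.9% of all genes passed, Hmgn5 was the only member past it. It lay on the lower side, with 6.98% of all genes, and 0 members lay on the higher side, with 6.95%. Of the 8 log2 ratios, 3 were positive and 5 negative, and their median was -0.11 beside -0.01 for all genes, whose quartiles were -0.14 and 0.13. The counting interval of the read ratio lay above 1 for 3 members and below 1 for 4, and held 1 for Hmgb3. Over all genes it lay above 1 for 28% and below 1 for 31.6%, and it held 1 for 40.4%, so an interval that leaves out 1 sets no member apart.

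**Figure D1:**
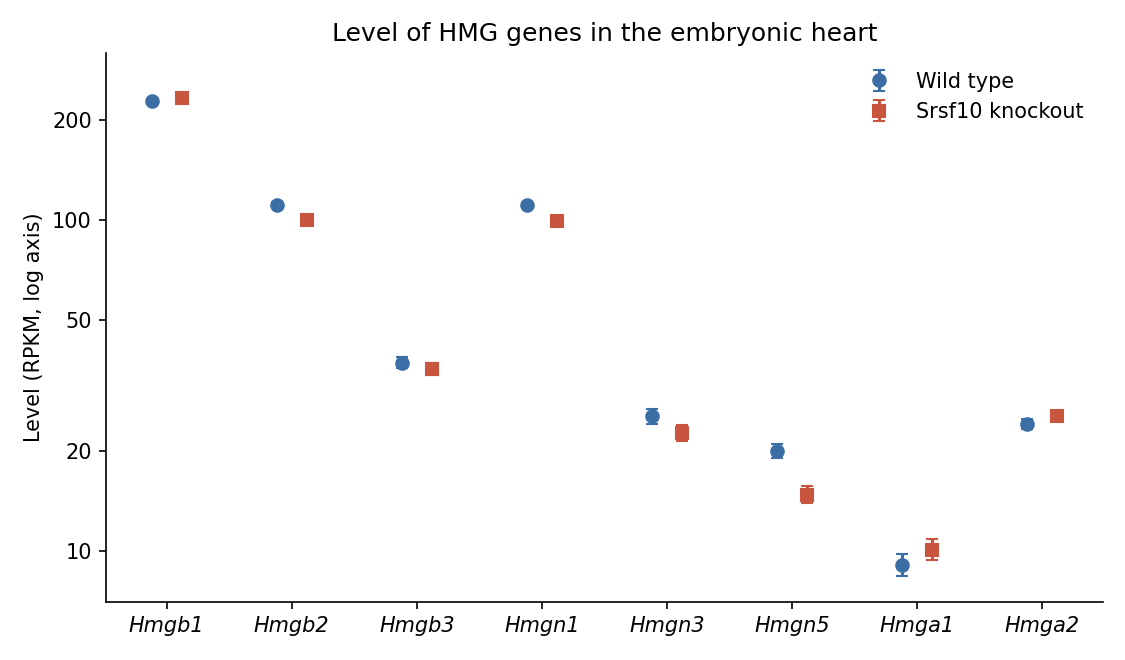
Level of each HMG gene in RPKM on a log axis, in the wild-type library (circles) and the Srsf10 knockout library (squares), with 95% Poisson intervals of the read counts. Hmgb1 is highest and Hmga1 lowest in both libraries, and the intervals of the pair stand apart most clearly for Hmgn5 (20.1 and 14.8 RPKM).

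The order of the members by RPKM was nearly the same in both hearts. Hmgb1 came first, above 98.2% of expressed genes in the wild type. Hmgb2 (111.3 RPKM, interval 109.3 to 113.3) and Hmgn1 (110.7 RPKM, 108.4 to 112.9) followed in the wild type and could not be told apart within counting error, as was so in the knockout at 99.95 and 99.18 RPKM. Hmgb3 came next. Hmgn3 and Hmga2 lay close in the wild type, at 25.5 RPKM (24.1 to 26.8) and 24.2 RPKM (23.4 to 24.96), and changed places in the knockout, at 22.8 RPKM (21.5 to 24.1) and 25.6 RPKM (24.8 to 26.4). Hmgn5 and Hmga1 closed the order in both. These levels count unique reads over the whole listed length, and the part of shared sequence in them was not tested.

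Among the HMGN genes, all 3 members were lower in the knockout library. Hmgn1 (ENSMUSG00000040681, chromosome 16), which makes up 70.9% of the RPKM of these members in the wild type, had 9529 reads (110.7 RPKM) in the wild type and 8385 reads (99.2 RPKM) in the knockout. Its level was 1.12-fold lower (1.08 to 1.15). Hmgn3 (ENSMUSG00000066456, chromosome 9), whose product is best known from pancreatic islets and brain, had 1403 reads (25.5 RPKM) and 1231 reads (22.8 RPKM). It was likewise 1.12-fold lower (1.04 to 1.21), and over 40% of expressed genes differed by more than either: 43.0% by more than Hmgn1 and 43.2% by more than Hmgn3.

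Hmgn5 (ENSMUSG00000031245), the X-linked member with a long acidic tail, had the largest difference of the 8. The wild-type heart gave 1537 reads (20.1 RPKM) and the knockout heart 1111 reads (14.8 RPKM), with Poisson intervals of 19.1 to 21.1 and 13.9 to 15.7 RPKM that do not overlap. The level was 1.36-fold lower (1.26 to 1.47), or 73.6% of wild type, with a log2 ratio of -0.42. Of all expressed genes, 7.58% differed by more in either direction. Coverage, the share of the listed length with reads, was 97.21% and 99.28%, which left 54 and 14 of 1934 bases without reads. The median log2 ratio over 420 expressed X-linked genes was 0.01, and 6.9% of them were lower by at least 0.32 on that scale, beside 6.93% of autosomal genes. Summed over the 3 genes, HMGN reads were 12469 and 10727, 1.14-fold lower (1.11 to 1.17). Hmgn2, which is not among the members and is named after its values were seen, had 225.6 RPKM against 127.6 in the knockout, and lies on chromosome 4 as Srsf10 does.

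**Figure D2:**
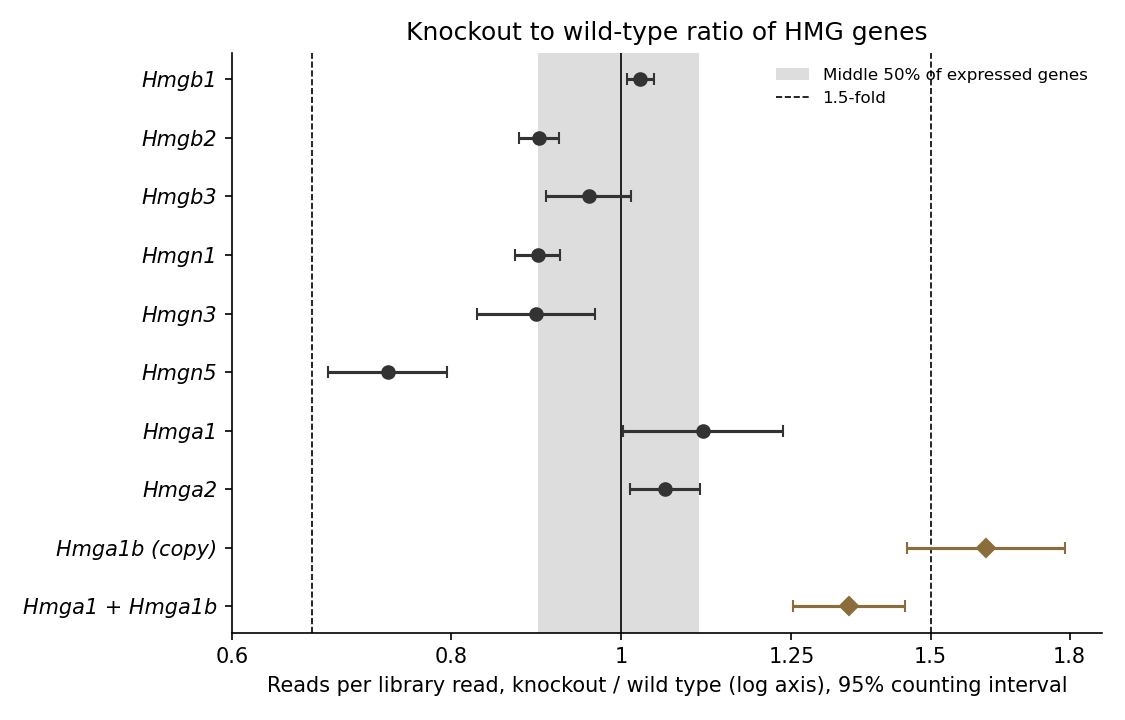
Ratio of reads per library read, knockout over wild type, on a log axis with 95% counting intervals, for the 8 HMG genes (circles), the Hmga1 copy Hmga1b and the sum of both (diamonds). The grey band runs between the quartiles of expressed genes (0.90 to 1.11), and Hmgn5 at 0.74 is the member farthest outside it.

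Summed over the members followed here, the HMGB genes had the highest RPKM of the 3 groups, at 377 and 370. They also had the smallest difference between the libraries. This order is not one of whole families, since the HMGN sum of 156 and 137 RPKM leaves out Hmgn2, at 225.6 and 127.6. Hmgb1 (ENSMUSG00000066551, chromosome 5), which bends DNA in the nucleus and acts as a danger signal when released from cells, had 25719 reads (228.8 RPKM) in the wild type and 25887 reads (234.6 RPKM) in the knockout. The knockout was 1.03-fold higher (1.01 to 1.04), and 85.0% of expressed genes differed by more. Hmgb2 (ENSMUSG00000054717, chromosome 8), the paralog of dividing cells, had 11869 reads (111.3 RPKM) and 10463 reads (99.95 RPKM), 1.11-fold lower (1.08 to 1.14). Hmgb3 (ENSMUSG00000015217, X chromosome), known from embryonic and blood-forming cells, had 2558 reads (37.0 RPKM) and 2406 reads (35.5 RPKM). Its ratio of 0.96 had an interval of 0.91 to 1.01, so no difference was detectable at this depth. Hmgb1 made up 60.7% of the RPKM of these 3 genes in the wild-type heart and 63.4% in the other. Summed HMGB reads were 40146 and 38756, 1.02-fold lower (1.003 to 1.03).

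Both HMGA genes were slightly higher in the knockout library. Hmga2 (ENSMUSG00000056758, chromosome 10), an embryonic growth gene restrained by let-7 microRNAs, had 3647 reads (24.2 RPKM) in the wild type and 3790 reads (25.6 RPKM) in the knockout, 1.06-fold higher (1.01 to 1.11). Hmga1 (ENSMUSG00000046711, chromosome 17) had 680 reads (9.04 RPKM) and 743 reads (10.07 RPKM), 1.11-fold higher with an interval of 1.002 to 1.24. It is the lowest member by RPKM, but also the one with the least sequence of its own.

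Most of Hmga1 is shared with Hmga1b, an annotated gene on chromosome 11. Words of 31 bases were compared between the transcript of each gene and all other annotated transcripts. Of the Hmga1 words, 72.9% occurred in another gene, and 507 of 1868 occurred in none. Of the Hmga1b words, 92.7% were shared and 117 were not. The coding sequences of the Hmga1 transcript of the listed length (291 bases) and of Hmga1b (324 bases) had 0 mismatches and differed by an insertion of 33 bases, or 11 codons, in capitals here.
Hmga1: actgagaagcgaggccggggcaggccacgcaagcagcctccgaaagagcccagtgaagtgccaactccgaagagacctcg
Hmga1b: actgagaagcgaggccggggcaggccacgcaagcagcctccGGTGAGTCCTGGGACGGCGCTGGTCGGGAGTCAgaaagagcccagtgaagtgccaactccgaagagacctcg
The inserted stretch is part of Hmga1 as well: 5 of its 17 annotated transcripts hold the whole Hmga1b coding sequence, and 5 hold the one of 291 bases. Within the coding part, 262 of 291 Hmga1 words and 100% of the Hmga1b words were shared.

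Hmga1b had 602 reads (9.35 RPKM) in the wild type and 953 reads (15.1 RPKM) in the knockout, 1.61-fold higher (1.45 to 1.79). With Hmga1 it summed to 1282 and 1696 reads, 1.35-fold higher (1.253 to 1.45), beside 1.11-fold for Hmga1 alone. The coverage of Hmga1 also differed, with reads on 53.48% of its length in the wild type against 68.28%. Only 3.12% of expressed genes had a larger difference in coverage. Per covered base, the log2 ratio of Hmga1 turned from 0.14 to -0.19. The Hmga1 difference is thus uncertain in size and direction.

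**Figure D3:**
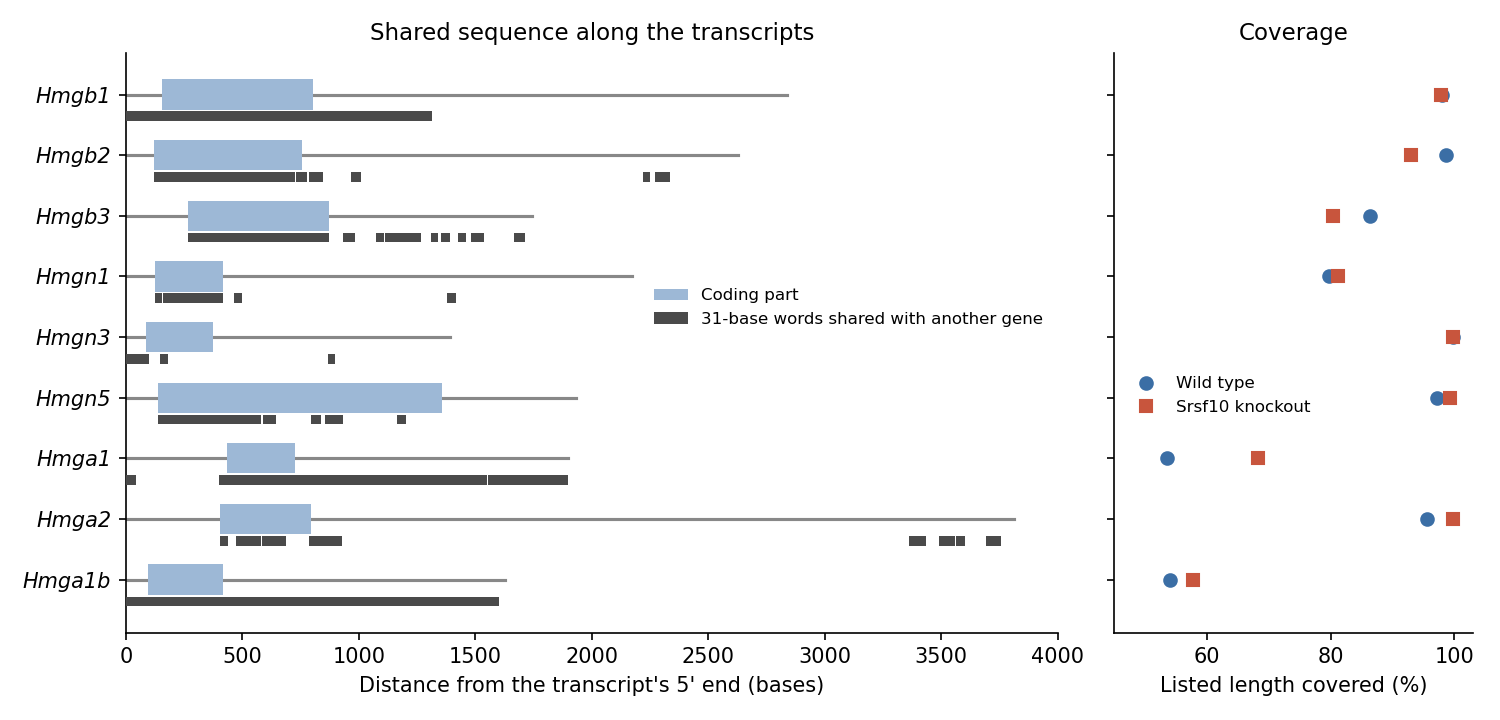
Left, the transcript of each HMG gene and of Hmga1b drawn from its 5′ end in bases, with the coding part as a box and, under it, the stretches made of 31-base words that occur in another gene. Right, the percent of the listed length covered by reads in the wild type (circles) and knockout (squares). Shared words fill nearly the whole of Hmga1b and most of Hmga1, which have the lowest coverage.

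In the HMGB genes, Hmgn1 and Hmgn5, most of the shared words lay in the coding part. For Hmgb1, 98.6% of coding words occurred in another gene but 23.0% of those in the 3′ untranslated region. The values for Hmgb2 were 93.5% and 2.99%, for Hmgb3 94.9% and 21.4%, and for Hmgn1 63.9% and 0.64%. Of the coding words of Hmgn5 36.9% were shared, and none outside them. Hmga2 had 116 shared words in its coding part (29.7%) and 199 in its 3′ untranslated region (6.67%). In Hmgn3 they lay in the 5′ untranslated region, where 70 of 85 words were shared beside 2 in the coding part. Hmgn3, with 5.36% of all its words shared, was the member with the fewest.

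Hmgb1 shared words with the most pseudogenes: 142 annotated ones held at least 1 of its words, none of them listed in the deposited tables. Hmgb3 had 19, of which Gm6104 was listed, with 10 and 8 reads. Hmgb2 had 15, Hmgn1 12, Hmgn5 3 and Hmga2 1, and none of these was listed. Hmga1 and Hmgn3 had none. A single shared word does not make a copy. Pseudogenes with 20% or more of either gene's words in the other were 78 for Hmgb1 and 5 for Hmgb2. There were 3 each for Hmgb3 and Hmgn1, and 1 each for Hmgn5 and Hmga2. How reads shared with such copies enter the deposited counts beyond the word unique in the headers is not given.

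Hmga1 and Hmga1b, with the highest shares of common words, had the lowest coverage, but the other members did not follow that order. Hmgb1 was covered to 98.03% and 97.92% although 43.5% of its words are shared, and Hmgn3 to 99.86% in both. Hmgn1, with 9.19% of its words shared, reached only 79.76% and 81.14%, leaving 440 and 410 of its 2174 bases without reads. The median of expressed genes was 96.6% and 96.3%. Hmgb3 was covered to 86.4% and 80.38%, Hmgb2 to 98.74% and 93.05%, and Hmga2 to 95.67% and 99.79%. Differences of at least 5 points, a size chosen after the values were seen, occurred in Hmga1, Hmgb2 and Hmgb3 and in 17.5% of all expressed genes. In Hmgb2 the bases without reads went from 34 to 187 of the listed 2692, at about 441 and 389 reads per 100 bases. Per covered base, Hmgb3 turned from a log2 ratio of -0.06 to 0.04, and Hmgb2 lay at -0.07 in place of -0.15.

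Genes annotated on the opposite strand add a further limit, as does Mm2pr on the same strand. Over all annotated transcripts, exons of Uspl1 overlap those of Hmgb1, and Uspl1 had 1924 and 2022 reads in wild type and knockout. The Hmgb1 transcript of the listed length shared no 31-base word with Uspl1. Exons of AI413582 overlap those of Hmga1, and AI413582 had 158 and 161 reads. Exons of genes that are not listed also overlap those of Hmga1 (Gm49774), Hmga2 (1700006J14Rik) and Hmgn3 (Gm2065 and Gm29054) on the opposite strand. Mm2pr, also not listed, has exons that overlap those of Hmgb1 on the same strand. The use of strand is not given, so reads over these overlaps cannot be told apart.

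Genes listed as other chromatin proteins with an HMG box ranged from -0.52 to 0.30 in log2 ratio, and their spread was not compared with that of the members. The list also holds Kdm2b, whose product is not known to have an HMG box. Of 18 measured, 8 were above 0 and 10 below, 0 passed 1.5-fold, and the median log2 ratio was -0.03. Ssrp1, the HMG-box subunit of the histone chaperone FACT and the most abundant by the mean of both libraries, had 61.4 and 65.9 RPKM. Tox3, named after its values were seen as the lowest ratio of the list, was 1.49-fold lower (1.37 to 1.63). The DNA-binding factors with an HMG box gave medians of -0.07 for 4 TCF/LEF genes and -0.08 for 10 SOX genes. Tcf7l1, a repressor of Wnt targets, was 1.28-fold lower, and Sox4, a factor of outflow tract development, had 61.1 and 44.3 RPKM, 1.38-fold lower.

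Of 7 linker histone genes looked up, the competitors of HMGN proteins on the nucleosome, H1f0 was not listed. Among the 6 listed, 2 reached 1 RPKM in either library. Whether the few reads of the others mean low expression was not tested. H1fx had 32.7 wild-type and 23.4 knockout RPKM, and Hist1h1c 7.49 and 10.01, so they differed in opposite directions. Partners and receptors of HMGB proteins had positive ratios in 3 of 10 members and negative ones in 7, the median being -0.07. Cxcr4, named after its values were seen, had the lowest ratio, at 5.40 and 3.45 RPKM. It was 1.57-fold lower by reads (1.33 to 1.85), but its log2 ratio of RPKM + 1 was -0.52, short of 1.5-fold. Anp32a, an acidic histone chaperone subunit, had the highest mean, at 111.8 and 112.4 RPKM. Set, a histone chaperone found with HMGB2, lay above it in the wild type but not in the knockout, at 120 and 98.6 RPKM, 1.22-fold lower. The receptors Ager, Tlr2 and Tlr4, which bind extracellular HMGB1, were all under 3 RPKM in both libraries, and each had a counting interval that held 1.

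The genes around Hmga2 regulation went both ways. Of 8 measured genes of the LIN28, let-7 and IGF2BP group, 5 were above 0 and 3 below, the median was 0.06 and 0 passed 1.5-fold. Lin28b, which blocks let-7 maturation, was low at 1.62 and 2.06 RPKM. Igf2bp2, an RNA-binding protein whose gene HMGA2 activates, had the highest mean, at 26.0 and 22.5 RPKM, although Tut4 was above it in the knockout at 24.1. Igf2bp3, named after its values were seen, was 1.49-fold lower (1.42 to 1.57), with 34.9% of its words shared. Cell cycle genes, with which Hmgb2 is known to rise in dividing cells, had 15 of 30 above 0 and 15 below and a median of 0.01. Pcna, the sliding clamp of replication, had the highest mean, at 85.8 and 89.4 RPKM, although Rrm2 was above it in the wild type at 86.1.

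**Figure D4:**
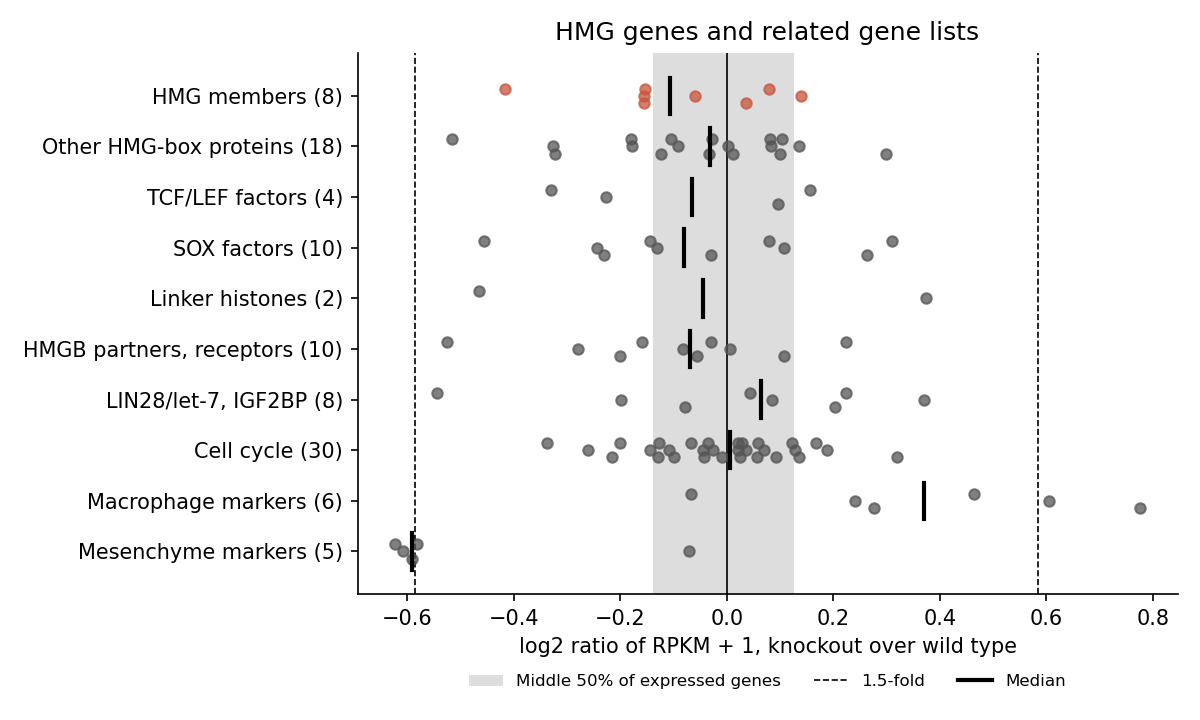
Log2 ratio of RPKM + 1, knockout over wild type, of each expressed gene (points) in the HMG members, the related lists and the macrophage and mesenchyme markers, with list medians as bars and the range between the quartiles of all expressed genes in grey. The 8 HMG members lie between -0.42 and 0.14. On this scale no gene of the related lists passes 1.5-fold, whereas 2 macrophage and 3 mesenchyme markers do.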

How the data were processed

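Each deposited count is the number of unique reads of an Ensembl gene, per the file headers, and the counts add up to the total in the header. RPKM was deposited by the authors and was recomputed from reads, listed length and total to a relative deviation of 2.2e-14. The deposited coverage is the percent of the listed length with reads. The submitters' processing notes name Bowtie 0.12.2 and mm9. Read length, strand use, filters and the annotation release: not given in the sources used here. Genes listed in 1 table alone were set to 0 reads in the other.

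Symbols matched 17196 of 17646 genes. The values compared were log2 ratios of RPKM + 1 for genes reaching 1 RPKM in either library. Read ratios carry exact conditional binomial (Clopper-Pearson) 95% intervals and RPKM exact Poisson intervals. Without molecular identifiers, PCR copies count as separate reads, and the intervals hold counting error alone. With 1 library per genotype there are no residual degrees of freedom and no test was made. The calling step was run on simulated counts with Poisson noise alone and with changes larger than those of any member. That run does not test differences of the size seen in the members, nor variation between embryos.

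Words of 31 bases, read on both strands, were compared over all GENCODE M21 (GRCm38) transcripts. The transcript of the listed length was used for each member except Hmgb2 (2628 bases against a listed 2692). Since the files use mm9, no genome coordinates are given. A filter setting left out genes with 20% or more of their words in any other genes, which need not have a copy. A gene counted as a near copy of a member when 20% or more of either gene's words lay in the other. Scaling alternatives used edgeR 4.0.16, and coding sequences were aligned with Biopython 1.88.

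The members and lists were chosen with earlier results of these data known. Named genes were the 8 members, the listed near copies and, in each HMG-related list, the gene with the highest mean RPKM. The cell type markers were not named by that rule. Of those past 1.5-fold, Cd68, Fcgr3, Col1a1, Col1a2, Dcn, Tnnt3 and Afp were not described singly. Other genes of the lists (among them Set, Ager, Tlr2, Tlr4, Lin28b, Tut4, Rrm2, Hist1h1c and single markers) were named after their values were seen. With 2 libraries, genes of like pattern were not sought.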

Additional observations from a re-analysis of the deposited data

How the results depend on the processing

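The median log2 ratio of the 8 HMG genes kept its direction under all 8 alternatives, between -0.11 and -0.09. Under either pseudocount or any of the 4 scalings, 0 members passed 1.5-fold. The filters could not raise that count. Those by RPKM kept all 8 members, and the one on shared words left out Hmgb1, Hmgb2, Hmgb3, Hmga1 and Hmgn5. At 0.32 on the log2 scale in place of 0.58 (1.5-fold), 1 member (Hmgn5) was lower. Hmga1 ranged from -0.19 per covered base to 0.43 summed with Hmga1b, and Hmgb3 from -0.07 to 0.04. These were the only members whose sign changed, and Hmgb2, at -0.07 per covered base, was the only other one that moved by more than its counting interval. Hmgn5 stayed between -0.45 and -0.34. The scalings moved the median of all genes by at most 0.02. The median over the related lists was -0.03 and lay between -0.03 and -0.01. That of the LIN28 and IGF2BP group went from 0.06 to 0.14 without genes that have 20% or more of their words in other genes. Under that setting the SOX median turned from -0.08 to 0.02, and the linker histone median turned from -0.05 to 0.07 with no filter. No other list median changed sign.

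The number of genes past the fold depends on the settings, in part by their construction. From 187 higher and 177 lower it became 402 and 343 with a pseudocount of 0.1, 34 and 54 with 5, and 74 and 104 at an RPKM of at least 5. It was 857 and 860 at 0.32 on the log2 scale and 26 and 41 at 2-fold. No paired analysis was possible because each genotype has 1 library. Hmga1, with the fewest reads of the members, had the widest interval, and that of Hmgb3 held 1.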

Other observations

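Among the genes of the HMG-related lists below 1 RPKM in both libraries, which entered no list median, the 3 with the largest read ratios are named after their values were seen. Sox10, an HMG-box factor of neural crest and glia, had 50 wild-type and 2 knockout reads, 24.5-fold lower with a counting interval of 6.45 to 208. Lin28a, the let-7 inhibitor of early embryos, had 25 and 3 reads, 8.18-fold lower (2.50 to 42.3). Havcr2, an immune receptor that binds HMGB1, had 5 and 38 reads, 7.74-fold higher (3.04 to 25.2). Among the cell type markers below 1 RPKM in both libraries, those with the largest read ratios were likewise named after their values were seen. Apoa1 of hepatocytes had 19 and 2 reads, 9.33-fold lower (2.25 to 82.6), and Myod1 of skeletal muscle 18 and 2 reads, 8.84-fold lower (2.12 to 78.5). Myog was also lower, at 41 and 18 reads, whereas Gata1, Klf1, Rhag, Ptprc and Ttr were higher, Gata1 the most at 24 and 58 reads.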
